A study of Fagopyrum tataricum with 9 samples.

Results

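Seeds of Tartary buckwheat (Fagopyrum tataricum, variety MIQIAO 1) change colour midway through ripening, and the 3 RNA sequencing libraries of that discoloration stage are described here against the mean of the stages on either side of it, green fruit (3 libraries) and initial maturity (3 libraries). They are 3 of the 9 libraries of the study. All libraries were of total RNA from whole field-grown seeds of 1 variety, untreated, so the stages differ in age alone as far as the labels say. The labels give 13, 19 and 25 days after anthesis without tying a day to a stage name. In developmental order these would be green fruit, discoloration and initial maturity, and with equal spacing the mean of the outer stages is the value of a straight line at the middle day on the log2 scale. The protocols in the labels say that seeds from 3 plants formed the replicates, without saying which library came from which plant. A gene was called a peak gene when discoloration was higher than both green fruit and initial maturity at an adjusted p under 0.05, and a dip gene when it was lower than both (edgeR quasi-likelihood test, Benjamini-Hochberg adjustment over 23631 genes). Levels are CPM, counts relative to library size, scaled between libraries by the trimmed mean of M values (TMM).

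A filling buckwheat fruit holds a maternal hull and seed coat, a starchy endosperm and an embryo. Flavonoids, among them the flavonol glycoside rutin for which Tartary buckwheat is known, are built from phenylalanine through chalcone, flavanone and dihydroflavonol, and a branch leads to anthocyanidins and proanthocyanidins that tan seed coats. Loss of green colour in ripening plant organs follows the removal of magnesium and of the phytol tail from chlorophyll and the opening of its ring. Hull and seed coat cells also form cutin, wax and lignified walls, while sugars pass from the mother plant to the seed through membrane transporters. Whole seeds were sequenced, so fewer cells of a type and less RNA per cell cannot be told apart in any value below.

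The libraries held 21585045 to 26777643 counts. TMM factors were 1.5 to 1.83 in green fruit, 0.825 to 0.885 at discoloration and 0.635 to 0.709 at initial maturity. In each stage 1 library stood apart from a closely similar pair. The pairs were green fruit 2 and 3, discoloration 2 and 3, and initial maturity 1 and 3, at a chi-square over degrees of freedom of 2.56, 1.98 and 3.54. The third library differed from its pair with values of 232 and 255 in green fruit, 42.5 and 42.9 at discoloration and 106 and 111 at initial maturity. The pairs still differed beyond sampling noise, which does not show that they came from separate plants. Each library was kept on its own, although a pair may be technical repeats of 1 plant. The labels do not settle whether a pair came from 1 plant or several, so n = 3 may count fewer independent samples. The p-values therefore reflect how these libraries scatter, and part of that scatter may be technical. They are too small if a pair came from 1 plant. With each pair added together as 1 library, the number of peak genes was 64 and of dip genes 19, and with the 3 libraries that stood apart left out it was 2853 and 2151.

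Discoloration was more often above than below the mean of its neighbours with TMM scaling, and more often below it with library totals. Against the mean of the other stages 4730 genes (20.0% of those tested) were called, 3174 of them higher (13.4%) and 1556 lower (6.58%). Most of the 3174 were not called as peaks. Of these, 1161 were higher than in green fruit with no call against initial maturity. A further 990 were higher than at initial maturity with no call against green fruit. Another 187 went up over green fruit and were still higher at initial maturity, and 102 went down at both steps. Another 4 were called in neither pair. That left 730 peak genes (3.09%), and 579 genes (2.45%) dipped. The split of higher against lower calls depends on the scaling. With library totals in place of TMM factors the median of all genes moved by -0.32 on the log2 scale. Then 1851 of the 23631 genes were higher and 4797 lower, so 27.8% of calls were higher against 67.1% with TMM, and 327 genes peaked and 1001 dipped. Counts of gene lists with library totals below are to be read against these.

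**Figure D1:**
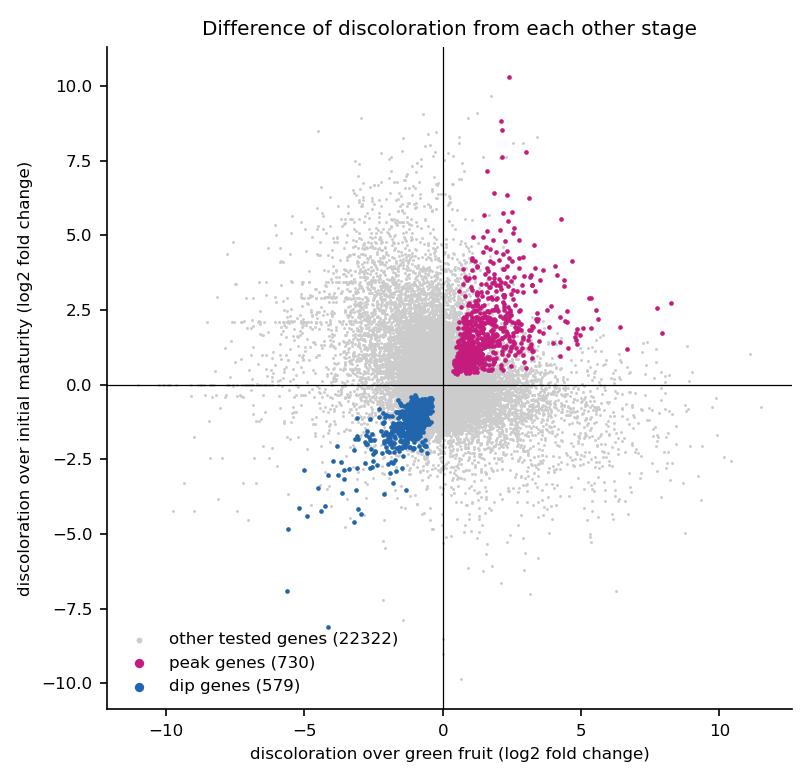
Each point is 1 of the 23631 tested genes, with the log2 fold change of discoloration over green fruit on the x axis and over initial maturity on the y axis. The 730 peak genes lie in the upper right and the 579 dip genes in the lower left.

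The outer stages of most peak genes were not told apart. Of the 730, 444 showed no call between initial maturity and green fruit, 120 were higher at initial maturity than in green fruit and 166 were lower. The smaller of the 2 steps had a median of 1.09 on the log2 scale (0.35 to 4.28) and was at least 1 for 413 genes and at least 2 for 108. In 716 peak genes every discoloration library was above all 6 others, as was true of 6.80% of all tested genes. A high number follows largely from how peak genes were called in the same libraries. The genes closest to the threshold were FtPinG0002155700.01 just inside (larger adjusted p of its 2 tests 0.0499) and Novel02011 just outside (0.0503). By the authors' deposited table, 473 genes passed both pairwise tests as peaks and 156 as dips, with the direction taken from the fit described here. Of these, 392 and 144 were also peak or dip genes here, 82.9% and 92.3% of the authors' sets and 56.6% and 25.8% of the genes called here that their table lists.

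Among peak genes with a mean of at least 5 CPM the largest smaller step was that of a gene matched to rice beta-glucosidase 24, of a family that splits glucose from glycosides (FtPinG0007183600.01, chromosome 8, 5656026 to 5664859). It had 0.633, 0.714 and 0.817 CPM in the 3 green fruit libraries, 17.9, 19.3 and 17.8 CPM at discoloration and 1.27, 0.695 and 1.16 CPM at initial maturity. All discoloration libraries were far above all others, and the outer stages overlapped. The log2 fold change was 4.66 over green fruit (SE 0.24, edgeR adjusted p = 6.7e-06) and 4.13 over initial maturity (SE 0.24, adjusted p = 6.4e-05), and the peak was kept in all 20 alternative analyses. A cytochrome P450 gene matched to geraniol 8-hydroxylase of Swertia, an enzyme of monoterpenoid synthesis there (FtPinG0000262600.01, chromosome 1, 4004967 to 4006540), had 0.935, 1.94 and 2.32 CPM in green fruit, 28.9, 15.4 and 15.3 CPM at discoloration and 2.61, 0.442 and 2.19 CPM at initial maturity. Library 1 was nearly double its pair at discoloration, yet the lowest discoloration value was still several times the highest value elsewhere. Its averaged log2 difference was 3.51 (SE 0.43, adjusted p = 0.0011), again kept in all 20 alternatives.

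Several transporters of sugars and polyols peaked. Of 59 tested genes of sucrose cleavage and sugar transport 18 were higher (30.5%, against 13.4% of all genes), 4 were lower (11 and 10 with library totals) and 4 peaked. More peaking transporters than these 4 are named here and below, so some lie outside this list. A gene of the ERD6-like family of sugar transporters (ERD6-like 5, FtPinG0004645100.01, chromosome 5, 6770328 to 6772898) had 8.28, 8.38 and 10.6 CPM in green fruit, 57.3, 50.3 and 48.7 CPM at discoloration and 2.99, 2.59 and 3.22 CPM at initial maturity. The 3 stages did not overlap, with discoloration highest and initial maturity lowest. Its log2 fold change was 2.52 over green fruit (SE 0.16, adjusted p = 1.7e-05) and 4.15 over initial maturity (SE 0.18, adjusted p = 3.2e-05), kept in all 20 alternatives.

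A pair of genes matched to polyol transporter 5 of Arabidopsis, a proton-coupled carrier of sugar alcohols and sugars, lay on chromosome 8. FtPinG0007421200.01 (32257705 to 32259928) had 2.23, 1.41 and 1.33 CPM in green fruit, 101, 50.7 and 52.6 CPM at discoloration and 11.8, 1.64 and 13.9 CPM at initial maturity. FtPinG0006779800.01 (31751363 to 31753593) had 0.523, 0.612 and 0.281 CPM, then 40.5, 11.7 and 14.4 CPM, then 5.67, 0.442 and 5.6 CPM in the same order of stages. Both were high in every discoloration library, most of all in library 1, and both had 1 low library, number 2, at initial maturity. How reads matching both copies were counted is not stated here, which leaves their separate levels uncertain. The sugar exporter genes SWEET14 (FtPinG0001658200.01), SWEET15 (FtPinG0003149400.01) and SWEET2 (FtPinG0001428800.01) and the monosaccharide carrier gene STP8 (FtPinG0006513100.01) peaked too. SWEET14 had 164, 98.4 and 101 CPM in green fruit, 178, 267 and 256 CPM at discoloration and 102, 61.7 and 96.7 CPM at initial maturity, so green fruit library 1 came close to the lowest discoloration library. STP8 averaged 14.9 CPM in green fruit, 60.4 CPM at discoloration and 24.2 CPM at initial maturity, and its peak was kept in 19 of 20 alternatives, while the 3 SWEET peaks were lost with library totals.

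Several families of transcription factors had members that peaked. Over all genes 13.4% were higher and 3.09% peaked. Among MYB factors 24 of 94 tested genes were higher (25.5%) and 1 lower (13 and 9 with library totals), with 5 peaks. Of 66 NAC factors 18 were higher (27.3%), 3 were lower (12 and 7 with library totals) and 7 peaked. Of 68 WRKY factors 16 were higher (23.5%), 3 were lower (10 and 5 with library totals), 5 peaked and 1 dipped. Of 87 bHLH factors 19 were higher (21.8%), 2 were lower (12 and 5 with library totals), 4 peaked and 1 dipped. An R2R3 MYB gene matched to MYB86 (FtPinG0003417400.01, chromosome 1, 25975682 to 25976845) had 3.38, 2.9 and 3.06 CPM in green fruit, 20.7, 17.6 and 17.5 CPM at discoloration and 0.701, 0.379 and 0.386 CPM at initial maturity. No library of 1 stage overlapped another stage, and the averaged log2 difference was 3.91 (SE 0.18, adjusted p = 1.1e-05), kept in all 20 alternatives. A further MYB86 match (FtPinG0002967800.01) averaged 4.39 CPM in green fruit, 31.8 CPM at discoloration and 13.7 CPM at initial maturity.

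Both genes matched to NAC56, which in Arabidopsis acts in the integuments on seed coat and embryo development, peaked. FtPinG0002731100.01 (chromosome 7, 1154192 to 1155874) had 45, 41.8 and 42.4 CPM in green fruit, 194, 147 and 151 CPM at discoloration and 51.8, 48.8 and 52.5 CPM at initial maturity. The outer stages differed little and every discoloration library was near or above 3 times their level. Its fold change on the log2 scale was 1.93 over green fruit (SE 0.17, adjusted p = 6.9e-05) and 1.68 over initial maturity (SE 0.16, adjusted p = 2.8e-04), kept in all 20 alternatives. FtPinG0002173000.01 averaged 44.6 ± 3.73 CPM in green fruit, 101 ± 18.3 CPM at discoloration and 27.6 ± 3.65 CPM at initial maturity (SD, n = 3 each), and its peak was lost with library totals and with FPKM. WRKY50 (FtPinG0005008400.01), of a family of defence and senescence regulators, had 1.35, 2.1 and 2.19 CPM in green fruit, 7.4, 11.5 and 12.8 CPM at discoloration and 1.34, 0.505 and 1.03 CPM at initial maturity, with library 1 the lowest at discoloration but above all others. It too was kept in all 20 alternatives. A receptor kinase gene, phytosulfokine receptor 1 (FtPinG0004135900.01), whose Arabidopsis match binds a sulfated growth peptide, had 2.81, 7.22 and 6.43 CPM in green fruit, 21.3, 36.9 and 37.6 CPM at discoloration and 1.59, 0.126 and 1.09 CPM at initial maturity, the discoloration libraries lying above all others.

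**Figure D2:**
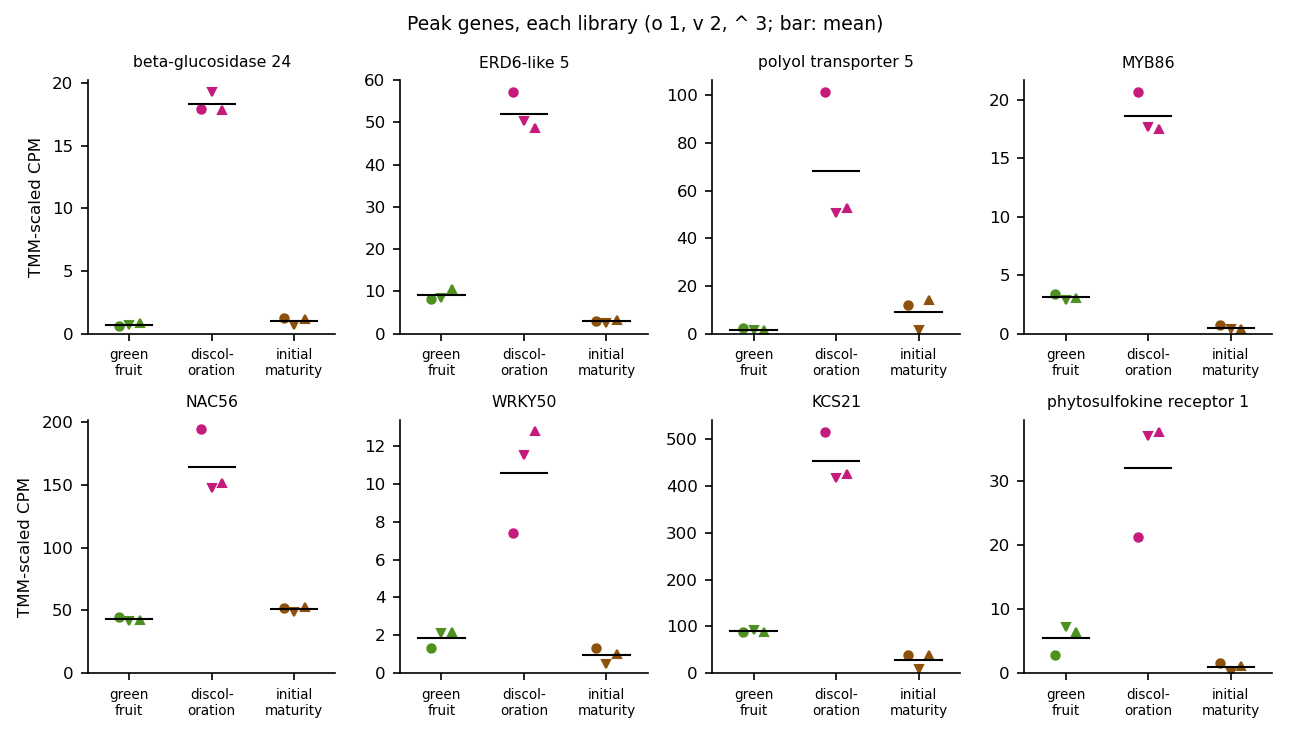
TMM-scaled CPM of 8 peak genes in each of the 9 libraries by stage, with library number given by marker shape and the stage mean by a bar, each axis starting at 0. In every panel the 3 discoloration libraries lie above the other 6, and library 1 differs from libraries 2 and 3 in several panels.

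Most early flavonoid genes were higher at discoloration than the mean of its neighbours. Of 21 tested genes of the early flavonoid enzymes 16 were higher than the mean of the other stages (76.2%, against 13.4% of all genes). None was lower, and 5 peaked (23.8%, against 3.09%). In 10 of the 21 every discoloration library was above the other 6, as for 6.80% of all tested genes. Their median log2 difference was 1.23 above that of all genes. Of the 21, 7 were higher than in green fruit and 16 higher than at initial maturity (over all genes 19.5% and 20.4%). With the 3 libraries that stood apart left out, 11 of the 21 peaked, as did 2853 of all 23973 genes tested there. Of 10 late flavonoid enzymes, of the anthocyanidin and proanthocyanidin branch, 5 were higher, none was lower and 1 peaked, with a median 1.20 above all genes. Of these 10, 5 were higher than in green fruit and 5 higher than at initial maturity (over all genes 19.5% and 20.4%). Of 12 genes of phenylpropanoid entry, which supply the coumaroyl precursor, 3 were higher and none peaked. The largest phenylalanine ammonia-lyase gene by counts (FtPinG0005713400.01) shows the late fall: 267, 392 and 397 CPM in green fruit, 178, 405 and 421 CPM at discoloration and 42, 35.9 and 40.5 CPM at initial maturity. Its green fruit and discoloration libraries overlapped widely, and the call came from initial maturity, where all 3 libraries were low (log2 fold change of discoloration over initial maturity 3.08, SE 0.35, adjusted p = 4.7e-04).

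The 5 early enzyme peaks were spread over the path. A gene matched to chalcone isomerase 3 (FtPinG0008656900.01, chromosome 4, 45828038 to 45829151), of the chalcone isomerase family, had 378, 534 and 514 CPM in green fruit, 767, 802 and 825 CPM at discoloration and 324, 226 and 340 CPM at initial maturity. Discoloration was above all other libraries by a modest margin over green fruit (log2 fold change 0.75, SE 0.25, adjusted p = 0.042) and a wider one over initial maturity (1.43, SE 0.26, adjusted p = 0.0032). A flavanone 3-dioxygenase gene, for the enzyme that makes dihydroflavonols (FtPinG0009446300.01), had 18, 21.5 and 20.4 CPM in green fruit, 33.6, 53.7 and 52.7 CPM at discoloration and 13.4, 10.5 and 16.5 CPM at initial maturity, with no overlap. Chalcone synthase 2 (FtPinG0003701300.01), the entry enzyme of the path, averaged 5.77 CPM in green fruit, 14.9 CPM at discoloration and 3.2 CPM at initial maturity, and a further chalcone synthase 2 match (FtPinG0003710800.01) averaged 0.472, 3.18 and 0.574 CPM. A flavonol synthase gene (FtPinG0001318800.01), whose enzyme makes the flavonols that rutin derives from, averaged 3.61, 6.43 and 1.34 CPM in the same order of stages.

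Several other much counted flavonoid genes were not called higher at discoloration than in green fruit. Between these stages some stayed near level or fell. A naringenin,2-oxoglutarate 3-dioxygenase gene (FtPinG0006662600.01) averaged 367 CPM in green fruit, 362 CPM at discoloration and 56.7 CPM at initial maturity. A flavonoid 3'-monooxygenase gene (FtPinG0002353900.01) averaged 99.6, 94.2 and 38.3 CPM. A dihydroflavonol 4-reductase gene (FtPinG0006124000.01) averaged 167, 18.5 and 0.743 CPM. A chalcone synthase gene (FtPinG0008131000.01) averaged 208 CPM in green fruit, 378 CPM at discoloration and 62.3 CPM at initial maturity, with an adjusted p of 0.14 over green fruit and 0.0026 over initial maturity. Another flavonol synthase gene (FtPinG0006907100.01) averaged 346, 635 and 259 CPM and passed neither the averaged test nor the test over green fruit (adjusted p = 0.12), although every discoloration library was above the other 6. In the late branch leucoanthocyanidin dioxygenase (FtPinG0006306200.01), which makes anthocyanidins, peaked with 67, 202 and 205 CPM in green fruit, 437, 350 and 345 CPM at discoloration and 55.6, 25.5 and 52.1 CPM at initial maturity. Green fruit library 1 was far below its pair there, the adjusted p over green fruit was 0.046, and the peak was kept in only 6 of 20 alternatives. A leucoanthocyanidin reductase gene (FtPinG0000053800.01), whose enzyme makes catechin units of proanthocyanidins, had 58.5, 167 and 183 CPM, then 282, 212 and 203 CPM, then 41.1, 27.7 and 42.6 CPM, with no overlap but no call over green fruit (adjusted p = 0.14). The other leucoanthocyanidin reductase gene (FtPinG0002428800.01) instead climbed through both steps, averaging 39 CPM in green fruit, 88.4 CPM at discoloration and 220 CPM at initial maturity.

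Among enzymes that decorate flavonoids 5 of 25 were higher (20%, against 13.4% of all genes) and 3 peaked (12%, against 3.09%). The firmest was a gene matched to anthocyanidin 3-O-glucosyltransferase 6 of cassava (FtPinG0001669800.01, chromosome 7, 41764344 to 41768822), with 4.13, 2.73 and 2.09 CPM in green fruit, 23.1, 16.9 and 17.1 CPM at discoloration and 6.37, 4.42 and 5.54 CPM at initial maturity. Every discoloration library was more than double any other library, and the peak was kept in all 20 alternatives (averaged log2 difference 2.24, SE 0.22, adjusted p = 4.2e-04). Of 13 flavonoid regulators 5 were higher (38.5%), 1 was lower (7.69%, against 6.58% of all genes) and 1 peaked (7.69%). The peak was a match to the maize anthocyanin activator C1 (FtPinG0007711300.01). It had 2.48, 2.92 and 2.48 CPM in green fruit, 4.74, 5.2 and 4.86 CPM at discoloration and 1.66, 1.26 and 0.644 CPM at initial maturity. With library totals 10 of the 21 early enzymes were still higher but 1 peaked, and with close pairs added together no early or late enzyme was called.

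Some seed coat marker genes were also higher at discoloration. Of 9 tested markers 5 were higher (55.6%, against 13.4% of all genes), none was lower and none peaked. With library totals 1 was higher. Of the 9 markers 5 are themselves flavonoid genes. Their summed level was 335 to 609 CPM in green fruit, 638 to 791 CPM at discoloration and 362 to 470 CPM at initial maturity, and 1 of the 10 matched markers, a further leucoanthocyanidin reductase gene, had no count in any library. Of the markers outside the flavonoid path, matches to AGL11, a MADS-box factor of ovule and seed coat identity (FtPinG0009028000.01), and to GLABRA 2, a homeobox factor of the epidermis (FtPinG0006987000.01), averaged 59.2, 69.6 and 33.8 CPM and 65.3, 72.8 and 29 CPM over the 3 stages. Neither was called over green fruit, and both were higher than at initial maturity (adjusted p = 0.0011 and 0.0019). A further GLABRA 2 match (FtPinG0007279100.01) averaged 30.2, 41.7 and 24.6 CPM, with every discoloration library above the other 6. It was called over initial maturity (adjusted p = 0.016) but not over green fruit (adjusted p = 0.086). A match to beta-galactosidase 6 (FtPinG0006930200.01) averaged 23.5 CPM in green fruit, 5.85 CPM at discoloration and 0.383 CPM at initial maturity, lower at discoloration than in green fruit (adjusted p = 0.015). The part of seed coat tissue in the flavonoid values was not tested.

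Genes of chlorophyll breakdown were higher than the mean of the other stages in 9 of 16 cases (56.2%, against 13.4% of all genes). None was lower and 3 peaked, and with library totals 4 were higher and none lower. Against green fruit 6 were higher and 1 lower (over all genes 19.5% and 19.9%), with a median log2 fold change of -0.18. Against initial maturity 10 were higher and 1 lower (over all genes 20.4% and 16.0%), with a median of 1.10. A pheophytinase gene, for the enzyme that takes phytol off pheophytin (FtPinG0008999900.01, chromosome 7, 6321384 to 6324004), had 25.1, 22.1 and 22 CPM in green fruit, 108, 63.8 and 65.8 CPM at discoloration and 36.6, 24.1 and 35.9 CPM at initial maturity. Discoloration was above the rest in every library, most in library 1, with a log2 fold change of 1.78 over green fruit (SE 0.25, adjusted p = 7.3e-04) and 1.30 over initial maturity (SE 0.24, adjusted p = 0.0040), kept in 19 of 20 alternatives. STAY-GREEN 1, whose Arabidopsis match takes magnesium from chlorophyll (FtPinG0006260200.01), had 23.3, 19.8 and 20 CPM in green fruit, 51.3, 37 and 32.9 CPM at discoloration and 27.9, 29.1 and 26.9 CPM at initial maturity, a smaller peak kept in 8 of 20 alternatives. Another pheophytinase match (FtPinG0000786400.01) peaked at 13.4, 12.7 and 14.4 CPM, against at most 7.25 CPM in green fruit and 2.51 CPM at initial maturity. Pheophorbide a oxygenase, which opens the ring (FtPinG0001295500.01), averaged 36.4 CPM in green fruit, 52.8 CPM at discoloration and 11.4 CPM at initial maturity, and was called over initial maturity only (adjusted p = 4.3e-04, against 0.097 over green fruit).

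Photosynthesis genes did not peak. Of 55 tested, 13 were higher than the mean of the other stages (23.6%), but 43 were lower than in green fruit and none higher, and 45 were higher than at initial maturity and 1 lower, over backgrounds of 19.9% lower and 20.4% higher in those comparisons. The early light-induced protein 2 gene, for a pigment-binding protein of the thylakoid known from light stress (FtPinG0007575400.01), did peak, at 2.09, 15 and 14.3 CPM in green fruit, 129, 50 and 53.4 CPM at discoloration and 3.82, 2.72 and 5.34 CPM at initial maturity. The lowest discoloration library was over 3 times the highest of the others. Of 21 carotenoid genes 4 were higher (19.0%, against 13.4% of all genes), 1 was lower (4.76%, against 6.58%) and 2 peaked (9.52%, against 3.09%). The peaks were zeaxanthin epoxidase, which makes violaxanthin (FtPinG0005946900.01), and phytoene dehydrogenase, which desaturates phytoene (FtPinG0002949100.01). Zeaxanthin epoxidase had 24.8, 29.9 and 28.1 CPM in green fruit, 85.7, 62.6 and 59 CPM at discoloration and 16.1, 16.4 and 14.2 CPM at initial maturity, and phytoene dehydrogenase averaged 23.9, 38 and 13.1 CPM. The zeaxanthin epoxidase peak was kept with close pairs added together and lost with library totals.

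**Figure D3:**
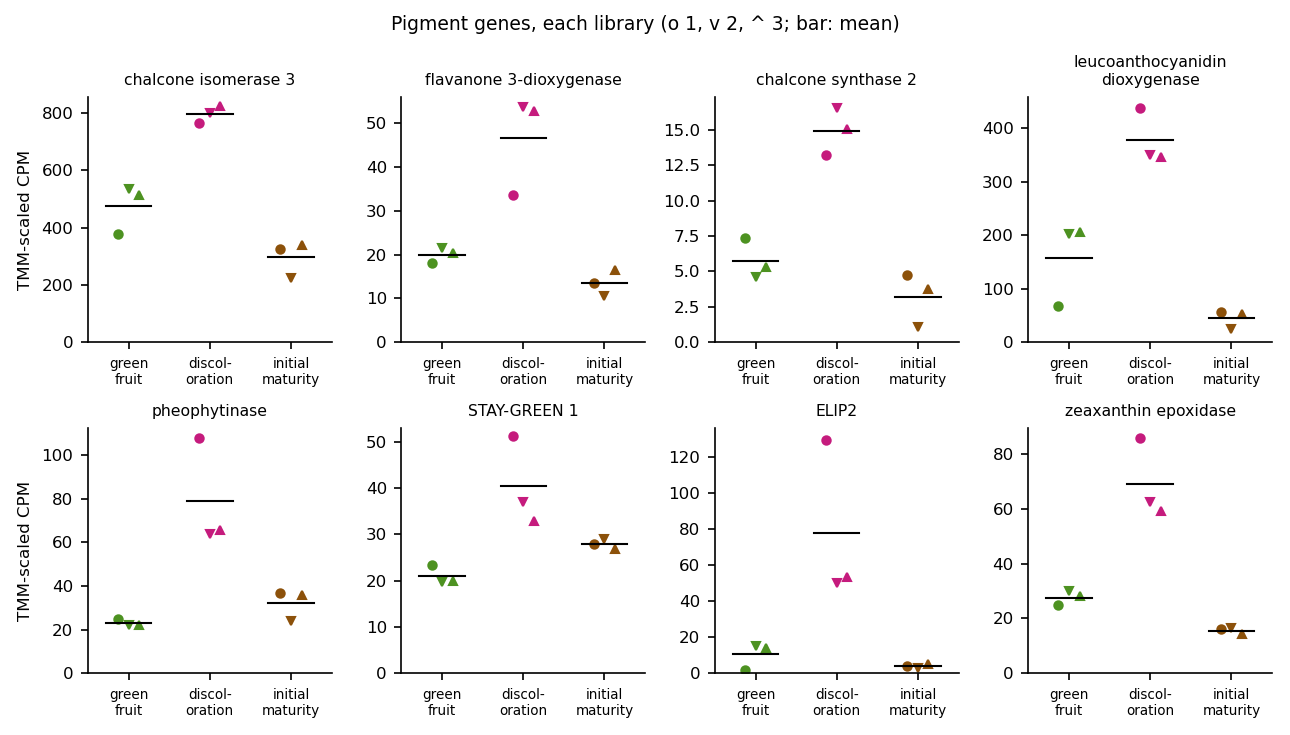
TMM-scaled CPM of 4 flavonoid, 2 chlorophyll breakdown, 1 light-stress and 1 carotenoid gene in each library by stage, with bars at stage means and axes from 0. Discoloration lies above both other stages in each panel, and green fruit library 1 is low for leucoanthocyanidin dioxygenase and early light-induced protein 2.

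Genes of cutin and wax synthesis also peaked. Of 145 cuticle and wax genes 33 were higher (22.8%, against 13.4% of all genes) and 11 lower (7.59%, against 6.58%). With library totals 24 were higher and 17 lower. Of the 145, 9 peaked (6.21%, against 3.09%) and 5 dipped (3.45%, against 2.45%). A 3-ketoacyl-CoA synthase 21 gene, of the family that elongates very-long-chain fatty acids (FtPinG0001442400.01, chromosome 6, 9101993 to 9103429), had 87.7, 92.9 and 88.6 CPM in green fruit, 516, 417 and 426 CPM at discoloration and 39.4, 8.4 and 39.1 CPM at initial maturity. The stages did not overlap, and the peak was kept in 19 of 20 alternatives (averaged log2 difference 3.15, SE 0.39, adjusted p = 0.0011). KCS10, whose Arabidopsis match is needed to keep organ surfaces from fusing (FtPinG0001658600.01), had 152, 174 and 180 CPM in green fruit, 390, 317 and 306 CPM at discoloration and 170, 161 and 170 CPM at initial maturity. The alkane-forming wax gene ECERIFERUM 1 (FtPinG0005620900.01) averaged 44.3, 91.8 and 34.7 CPM, and the cutin hydroxylase gene CYP86A2 (FtPinG0001690000.01) averaged 48.1, 92.7 and 26.5 CPM. The peaks of these last 3 genes were lost with library totals.

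Among genes of lignin polymerisation and monolignol synthesis some peaked. Of 36 class III peroxidases, which oxidise monolignols in the wall among other substrates, 12 were higher (33.3%, against 13.4% of all genes), 3 were lower (8.33%, against 6.58%) and 5 peaked, with a median 1.08 above all genes. Peroxidase 55 (FtPinG0004712400.01) had 33.7, 68.4 and 71.4 CPM in green fruit, 133, 118 and 118 CPM at discoloration and 5.16, 2.46 and 4.44 CPM at initial maturity, and peroxidase 57 (FtPinG0005642000.01) averaged 0.667, 6.8 and 0.767 CPM. The first was high over both earlier stages and nearly lost at initial maturity, while the second appeared mainly at discoloration. Of 60 monolignol genes 16 were higher (26.7%), 1 was lower (1.67%) and 6 peaked. A cinnamoyl-CoA reductase 1 gene, for the first step specific to monolignols (FtPinG0008150300.01), had 22.5, 42.3 and 41.5 CPM in green fruit, 126, 96.3 and 101 CPM at discoloration and 53.3, 69.9 and 48.1 CPM at initial maturity. A cinnamyl alcohol dehydrogenase 1 gene (FtPinG0001615200.01) had 6, 18.2 and 20.2 CPM, then 56, 41.7 and 41.3 CPM, then 18.5, 9.29 and 20.6 CPM. Laccase-4 (FtPinG0007156500.01), which oxidises monolignols in Arabidopsis stems, averaged 5.35, 14.7 and 3.04 CPM and was the only peak of 19 laccases. Of the 19, 4 were higher (21.1%) and 2 lower (10.5%). Against green fruit 11 were lower (over all genes 19.9%). In contrast, of 25 genes of secondary wall cellulose and xylan 1 was higher, 1 was lower and none peaked, and their median was -0.59 against all genes.

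Oil body and storage protein genes were called against green fruit more often than against initial maturity. Of 28 oil body and triacylglycerol genes 12 were higher (42.9%, against 13.4% of all genes), none was lower and 2 peaked (7.14%, against 3.09%). Of 14 storage protein genes 2 were higher (14.3%) and none peaked. Against green fruit 19 oil body and 10 storage protein genes were higher (over all genes 19.5%), and against initial maturity 6 and none (over all genes 20.4%). Fatty acid and starch synthesis genes showed no such lean towards higher calls over green fruit. Fatty acid synthesis genes were near the shares of all genes there, with 11 of 48 higher and 11 lower (over all genes 19.5% and 19.9%). Against initial maturity 21 of the 48 were higher (over all genes 20.4%). Among 31 starch synthesis genes 3 were higher and 10 lower than in green fruit. Oleosin 5, a coat protein of oil bodies (FtPinG0006679900.01), averaged 696 CPM in green fruit, 7953 CPM at discoloration and 11149 CPM at initial maturity. Of 23 seed maturation regulators 7 were higher, none was lower and 1 peaked. It was FUS3, a B3 factor that switches on seed maturation in Arabidopsis (FtPinG0003428600.01, chromosome 6, 16255449 to 16258370), with 102, 29.8 and 29.5 CPM in green fruit, 162, 200 and 190 CPM at discoloration and 69.4, 53.2 and 68.4 CPM at initial maturity. WRI1, an AP2 factor of oil synthesis that peaked too (FtPinG0005986200.01), had 49.6, 20.2 and 19.9 CPM, then 60.2, 67.9 and 69.8 CPM, then 33.1, 30.1 and 30 CPM. In both genes green fruit library 1 was well above its pair and below all discoloration libraries, and both peaks were lost with library totals. Diacylglycerol acyltransferase 2, which completes triacylglycerol (FtPinG0002683400.01), peaked at an average of 25.3 CPM, against 12.7 CPM in green fruit and 18.2 CPM at initial maturity.

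Small heat shock proteins, chaperones of drying seeds, were higher than the mean of the other stages in 22 of 30 genes (73.3%, against 13.4% of all genes). Yet only 2 peaked (6.67%, against 3.09% of all genes). Of the 30, 25 were higher than in green fruit (background 19.5%). Against initial maturity 4 were higher and 3 lower (backgrounds 20.4% and 16.0%). A class II member (FtPinG0005008700.01) was one of the peaks, with 22, 11.4 and 11 CPM in green fruit, 130, 136 and 145 CPM at discoloration and 56.9, 99.5 and 63 CPM at initial maturity. Embryo markers, 6 of 11 of which are also in the oil body list, had a summed level of 2566 to 7392 CPM in green fruit, 35307 to 38969 CPM at discoloration and 44496 to 56407 CPM at initial maturity, with 4 of 11 higher. The initial maturity libraries were all above discoloration in this sum, and 10 of 11 markers were higher at discoloration than in green fruit. Endosperm markers, 6 of 9 of which are also in the storage protein list, summed to 8116 to 30340, 142840 to 144579 and 113741 to 206947 CPM with none of 9 called, and no marker of either list was without a count. Neither list had a peak gene, and the part of embryo and endosperm in the other values was not tested.

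Dip genes were fewer than peak genes with TMM scaling and more numerous with library totals. They were also slightly more numerous with DESeq2 size factors (683 dips and 660 peaks) and with the DESeq2 Wald test (852 and 823). With upper quartile factors they were fewer (616 and 698). Of the 579, 455 showed no call between initial maturity and green fruit, and the smaller step had a median of 0.93 on the log2 scale and was at least 1 for 255 genes. All discoloration libraries were below the other 6 for 561 dip genes, as for 5.67% of all tested genes, which again follows largely from how these genes were called. A gene matched to a bacterial beta-glucosidase of glycoside hydrolase family 3, BoGH3B (FtPinG0002505300.01, chromosome 8, 18693889 to 18696610), had 6.16, 7.2 and 6.69 CPM in green fruit, 1.89, 2.31 and 1.78 CPM at discoloration and 6.11, 6.7 and 7.73 CPM at initial maturity. The outer stages overlapped and discoloration lay well below both, with a log2 fold change of -1.74 over green fruit (SE 0.20, adjusted p = 2.5e-04) and -1.78 over initial maturity (SE 0.20, adjusted p = 4.2e-04). Early nodulin-like protein 1, a plastocyanin-like protein of the cell surface (FtPinG0001120200.01, chromosome 5, 52540958 to 52542169), had 36.7, 67.5 and 78.8 CPM in green fruit, 11.4, 10 and 8.92 CPM at discoloration and 33.2, 39.8 and 37.6 CPM at initial maturity. Both dips were kept in all 20 alternatives.

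Other large dips were of single genes with varied roles. Soluble inorganic pyrophosphatase 4 (FtPinG0003834700.01), which hydrolyses the pyrophosphate left by biosynthesis, had 13.2, 65.8 and 65.8 CPM in green fruit, 11.3, 8.62 and 6.63 CPM at discoloration and 43.1, 42.3 and 41.9 CPM at initial maturity. Green fruit library 1 was close to discoloration there and its pair was not. YLS3, named from yellowing Arabidopsis leaves (FtPinG0006629800.01), had 17.7, 62.2 and 60.4 CPM, then 6.84, 7.51 and 8.08 CPM, then 24.3, 29.6 and 26.9 CPM. LONGIFOLIA 1, which promotes cell elongation in Arabidopsis leaves (FtPinG0001730500.01), averaged 25.9 CPM in green fruit, 6.24 CPM at discoloration and 22.9 CPM at initial maturity. WRKY20 (FtPinG0006884300.01) was low at discoloration by a small step from green fruit (7.76, 7.67 and 7.73 CPM in green fruit, 4.64, 5.86 and 5.19 CPM at discoloration) and a large one from initial maturity (24.9, 26.3 and 25.6 CPM). Of 121 genes of ethylene synthesis and response factors 34 were higher (28.1%, against 13.4% of all genes) and 12 lower (9.92%, against 6.58%). With library totals 22 were higher and 20 lower. Of the 121, 6 peaked (4.96%, against 3.09%) and 7 dipped (5.79%, against 2.45%). The dips included an ACC synthase gene, for the committed step of the ethylene path (FtPinG0009283700.01). It had 7.34, 22.2 and 21.6 CPM, then 3.47, 5.73 and 5.93 CPM, then 14.2, 15.9 and 14.6 CPM. ERF109 (FtPinG0009641900.01) and the signalling factor ETHYLENE INSENSITIVE 3 (FtPinG0003992200.01) dipped as well, averaging 56.4, 6.26 and 22 CPM and 50.2, 32.2 and 48.6 CPM. The dips of these 3 ethylene genes were lost with library totals.

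Few cell division or ribosomal protein genes were higher at discoloration. Of 144 cell division genes 16 were lower (11.1%, against 6.58% of all genes), 4 were higher and 4 dipped, and 42 were lower and 3 higher with library totals. With the 3 libraries that stood apart left out, 36 were higher and 34 lower, against 8446 and 6087 of all 23973 genes tested there. With all 9 libraries, 87 of the 144 were lower than in green fruit and 12 higher (over all genes 19.9% and 19.5%). The median log2 fold change of the list over green fruit was -1.48. Against initial maturity 24 were higher and 12 lower (over all genes 20.4% and 16.0%). The summed level of the list was 5888, 3275 and 3302 CPM in green fruit. It was 4055 to 4135 CPM at discoloration and 4147 to 5287 CPM at initial maturity. In this sum, unlike in the gene counts, green fruit libraries 2 and 3 were below every discoloration library. Cyclin-D3-1, which drives entry into the cycle (FtPinG0007976000.01), had 1.9, 1.37 and 1.33 CPM in green fruit, 0.561, 0.489 and 0.42 CPM at discoloration and 1.66, 2.97 and 1.8 CPM at initial maturity, all discoloration libraries being below all others. MCM6, a subunit of the replication helicase (FtPinG0005675200.01), averaged 20.2, 5.65 and 11.7 CPM. Of 278 cytosolic ribosomal protein genes 17 were lower (6.12%, close to the background), 2 were higher and 9 dipped (3.24%, against 2.45%). In 54 of the 278 all discoloration libraries were below the rest, as for 5.67% of all tested genes. Their median was -0.51 against all genes, and with library totals 134 were lower and 13 dipped. With the libraries that stood apart left out, 87 were higher and 112 lower, against 8446 and 6087 of all 23973 genes tested there. The gene of 40S ribosomal protein S7 (FtPinG0006954000.01) had 159, 100 and 102 CPM in green fruit, 65.2, 75 and 69.9 CPM at discoloration and 121, 153 and 126 CPM at initial maturity. The summed level of the ribosomal list was 20017 to 45817 CPM in green fruit, 20683 to 25684 CPM at discoloration and 32024 to 45216 CPM at initial maturity, and green fruit libraries 2 and 3 (20017 and 20136 CPM) were below every discoloration library.

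Of 33 antioxidant enzyme genes 3 were higher (9.09%, against 13.4% of all genes), 4 were lower (12.1%, against 6.58%) and 3 dipped, and 2 were higher and 9 lower with library totals. The chloroplastic Cu-Zn superoxide dismutase gene, for the enzyme that turns superoxide into hydrogen peroxide (FtPinG0000734300.01), had 43.8, 52.3 and 52.7 CPM in green fruit, 27.5, 27.8 and 31 CPM at discoloration and 54.8, 68.1 and 56.3 CPM at initial maturity. Its log2 fold change was -0.79 over green fruit (SE 0.15, adjusted p = 0.0034) and -1.05 over initial maturity (SE 0.15, adjusted p = 0.0012), kept in 19 of 20 alternatives. Monodehydroascorbate reductase, which regenerates ascorbate (FtPinG0005092000.01), averaged 35.4 CPM in green fruit, 23.8 CPM at discoloration and 59.1 CPM at initial maturity, and an iron superoxide dismutase gene (FtPinG0003334900.01) averaged 13.8, 9.81 and 13.5 CPM.

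**Figure D4:**
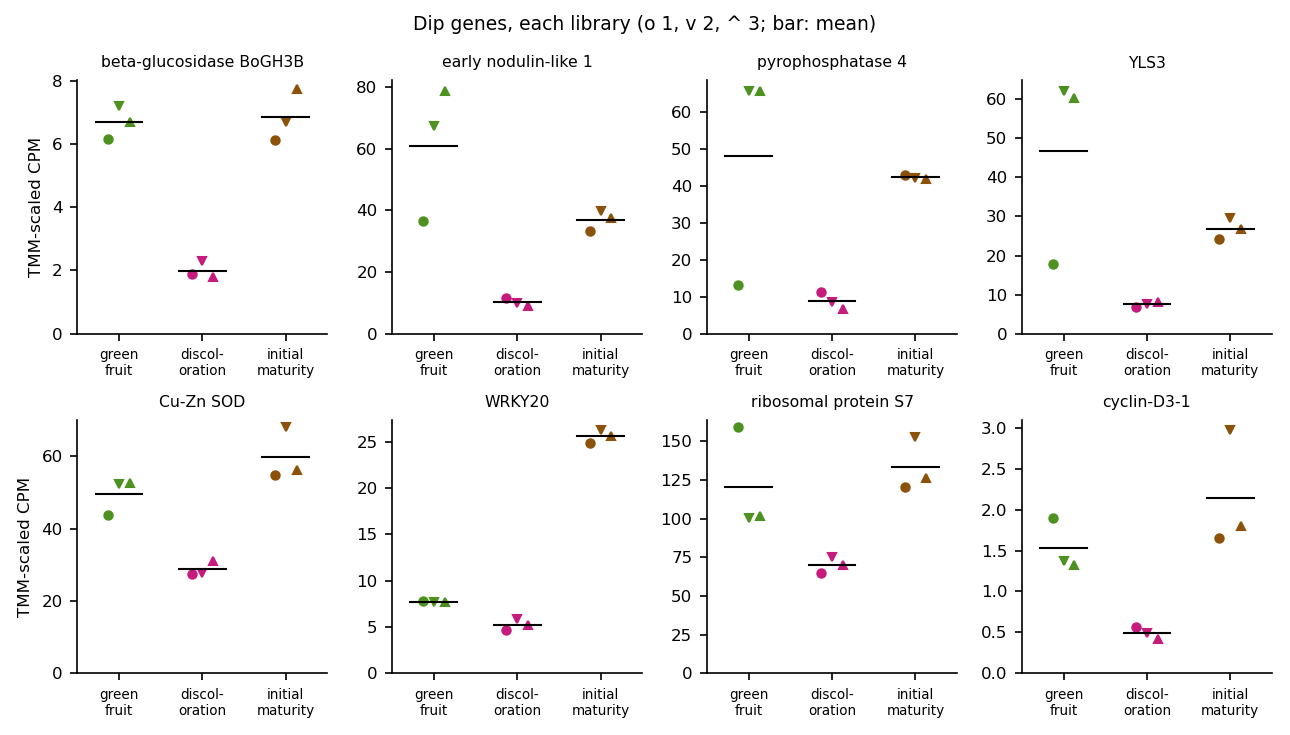
TMM-scaled CPM of 8 dip genes in each library by stage, with bars at stage means and axes from 0. The 3 discoloration libraries lie below the other 6 in every panel, while green fruit library 1 lies far below its pair for pyrophosphatase 4 and YLS3.

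**Figure D5:**
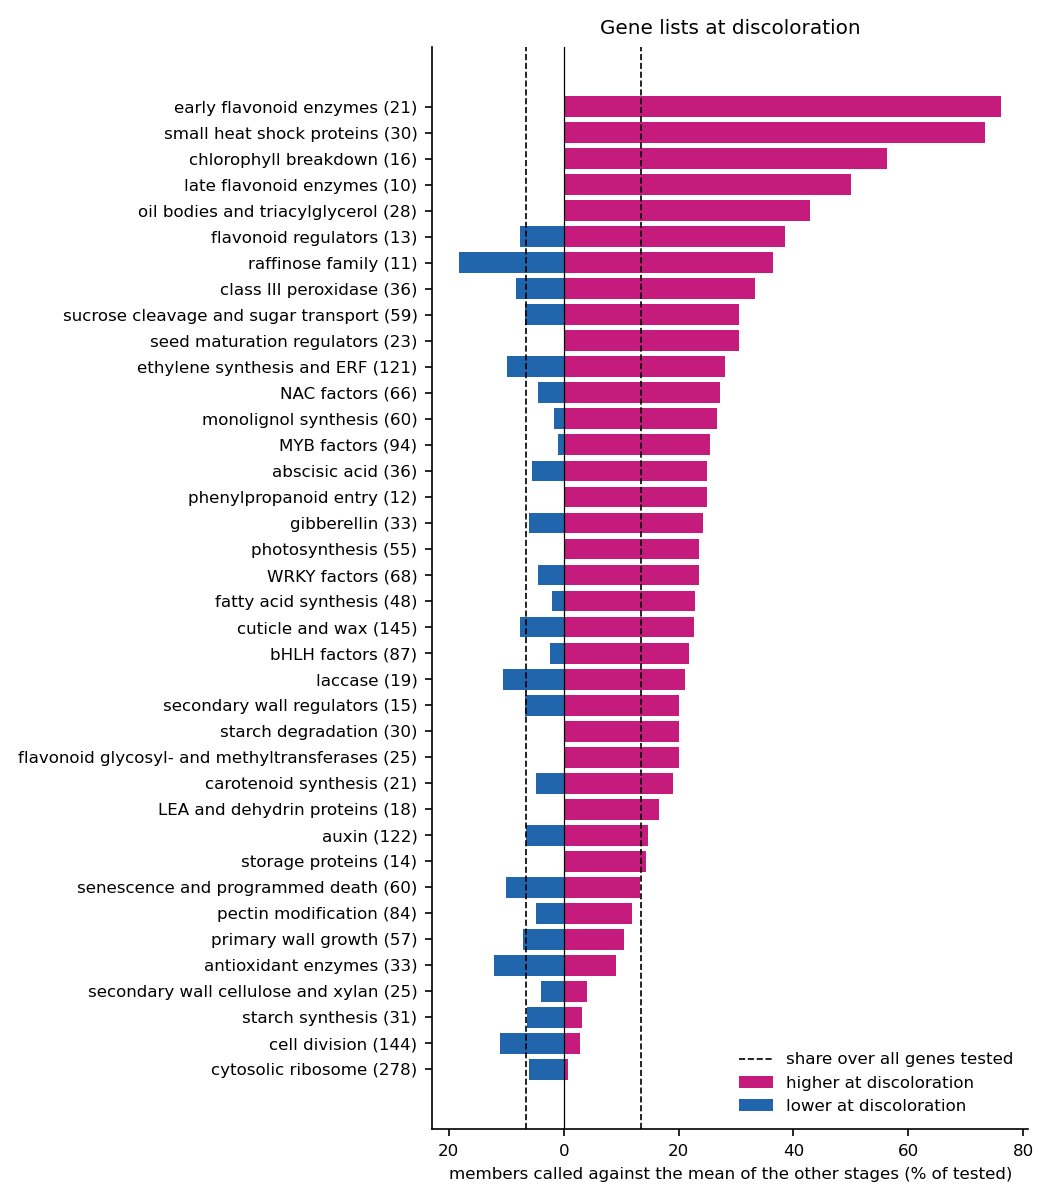
Share of tested members (number in brackets) of the gene lists with at least 10 tested members, marker lists left out, that was higher (right) or lower (left) at discoloration than the mean of the other stages, with dashed lines at the shares over all 23631 genes, 13.4% and 6.58%. Early flavonoid enzymes and small heat shock proteins reach furthest right among the lists shown, and cytosolic ribosome and cell division genes have the smallest shares of higher calls.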

How the data were processed

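RNA of MIQIAO 1 seeds was sequenced with the Illumina TruSeq kit, per the labels' protocols; the kit does not mark the strand. The submitters' processing notes list TopHat2 2.0.12 and Bowtie2 2.0.6. Counting program and genome build: not given in the sources used here. Positions are those deposited. The authors deposited read counts per gene, FPKM values, and a gene table with adjusted p-values per pair of stages and Swiss-Prot names, per the file headers. Gene names here are those of the best Swiss-Prot matches, present for 23451 of 33931 genes. Variant tables were not analysed here.

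Counts of all 9 libraries were fitted with edgeR 4.0.16 in R 4.3.3 (glmQLFit and glmQLFTest, TMM factors, filterByExpr with its minimum count of 10), without a replicate term. The filter left 23631 genes and removed 10300, of which 3822 had no count. The averaged contrast set discoloration against the other stages with a weight of 0.5 each. Peak and dip genes passed both pairwise contrasts in 1 direction at an adjusted p under 0.05. An SE here restates its test: it is the size of the log2 fold change over the root of the F statistic. The alternatives used DESeq2 1.42.0 and limma 3.58.1 on log2 FPKM, and the steps were tested on simulated data. There 2 of 100 genes given a 2-fold peak or dip were called as such, and 61 of 100 given a 4-fold one. A missing call therefore does not show that a gene did not peak or dip.

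The 43 gene lists are patterns of Swiss-Prot names, and members and lists were chosen with earlier results of these data known. Named were the 10 peak and 10 dip genes with the largest smaller step at a mean of at least 5 CPM, the 5 of each with the highest mean, and per list up to 4 peak or dip members or, with none, up to 2 called members of highest mean. Further members of the flavonoid, chlorophyll and seed coat lists were named after their values were seen.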

Additional observations from a re-analysis of the deposited data

How the results depend on the processing

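Over 20 alternatives no gene changed from peak to dip or from dip to peak. Against 4730 called, 730 peak and 579 dip genes, limma on log2(FPKM + 1) gave 7774, 392 and 878, and with a pseudocount of 0.1 it gave 7107, 337 and 1006. Library totals gave 327 peaks (216 shared) and 1001 dips (316 shared). A fold of at least 2 left 2777, 413 and 255. Close pairs added together left 144, 64 and 19, and leaving out the libraries that stand apart gave 14533, 2853 and 2151. Leaving out 1 library at a time gave 1979 to 8017 called, 372 to 1215 peaks and 234 to 894 dips, lowest without discoloration library 2 or 3 and highest without green fruit library 1. Same-numbered libraries did not deviate together (correlations of deviations from stage means -0.14 to 0.13), and with the replicate block, the number as a term, 4081 genes were called, 621 peaked and 479 dipped. Of the 113 named peak and dip genes 26 kept their call in all alternatives but the added pairs, and 12 kept it with these. The causes were not tested. The filter on low counts left 10300 genes untested, of which nothing is said here.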

Other observations

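The peak gene with the most counts had no Swiss-Prot match. FtPinG0000621400.01 (chromosome 5, 2898546 to 2899062) had 1779, 541 and 558 CPM in green fruit, 3588, 11594 and 12105 CPM at discoloration and 328, 1999 and 379 CPM at initial maturity. Library 1 was the lowest at discoloration and still above the other stages. The 730 peak genes summed to 12243 CPM in green fruit, 37673 CPM at discoloration and 12418 CPM at initial maturity, and without this gene, left out after its values were seen, to 11283, 28577 and 11516 CPM. The 579 dip genes summed to 9668, 4936 and 10181 CPM. The direction of these sums is fixed by how the genes were chosen, and only their size is described. A gene of the trichome birefringence-like family, which acetylates wall polysaccharides (TBL39, FtPinG0008621700.01), was another much counted peak, at 235, 101 and 102 CPM in green fruit, 995, 936 and 987 CPM at discoloration and 449, 418 and 505 CPM at initial maturity.

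Hormone genes were among both the peak and the dip genes (over all genes 13.4% higher, 6.58% lower, 3.09% peaks and 2.45% dips). Of 122 auxin genes 18 were higher, 8 were lower (16 and 19 with library totals), 9 peaked and 1 dipped. Over all genes, library totals likewise gave fewer higher than lower calls, 1851 against 4797. The repressor gene IAA31 (FtPinG0001577700.01) had 1.65, 6.02 and 6.69 CPM in green fruit, 40.1, 43.5 and 42 CPM at discoloration and 14.1, 15.2 and 11.5 CPM at initial maturity. Of 33 gibberellin genes 8 were higher, 2 were lower (5 and 5 with library totals), 2 peaked and 1 dipped. The receptor gene GID1B (FtPinG0007990400.01) peaked at 40.9, 23.1 and 26.1 CPM, against 10.9, 18.6 and 18.3 CPM in green fruit and 16.4, 11.1 and 19.4 CPM at initial maturity, while the biosynthetic gene gibberellin 20 oxidase 1 (FtPinG0004385200.01) dipped to an average of 1.44 CPM, against 4.17 CPM in green fruit and 5.3 CPM at initial maturity. Of 36 abscisic acid genes 9 were higher, 2 were lower (6 and 6 with library totals), 2 peaked and 1 dipped. Abscisic acid 8'-hydroxylase 4 (FtPinG0002378800.01), which inactivates the hormone, averaged 1.15 CPM in green fruit, 3.3 CPM at discoloration and 0.788 CPM at initial maturity.

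Peak genes made up 2.95% to 3.41% of the tested genes of each of the 8 chromosomes and dip genes 1.93% to 2.75%. Among genes next to each other in the deposited positions 38 pairs were both peak genes and 15 both dip genes, and 7 and 3 of these pairs shared a Swiss-Prot name, so that reads could be split between copies. Of the 730 peak genes 37 lay outside the reference annotation. Of 28 vascular markers 8 were higher (28.6%, against 13.4% of all genes), none was lower and 2 peaked (7.14%, against 3.09%). The list summed to 202 to 268 CPM in green fruit, 343 to 376 CPM at discoloration and 377 to 382 CPM at initial maturity. Of its 41 matches 6 were at 0 in all libraries, the phloem sucrose carrier SUC2 among them. Pollen and flower markers, 1 of 22 higher (4.55%) and 3 lower (13.6%, against 6.58% of all genes), summed to 585 to 862, 526 to 528 and 375 to 398 CPM. Of their 37 matches 10 were at 0.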
